A study of Mus musculus with 16 samples.

Results

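The Notch pathway was followed on the arrays through 34 genes, chosen as the ligands, receptors, processing enzymes, nuclear partners, modifiers and effectors of the pathway. All 34 were measured, each by at least 1 probeset that the platform table gives to a single gene, among 19937 genes named in this way and 34760 probesets in all. Where a gene had more than 1 such probeset, the one with the highest mean over the 16 arrays stood for it. Values are log2 signals, in which a difference of 1 is a doubling, and levels are compared between arrays for the same gene, never between genes.

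The arrays measured mRNA in mice that carry a transgene with *Mir183*, *Mir96* and *Mir182* behind a human GFAP promoter, a promoter active in the supporting cells of the postnatal organ of Corti but not in them alone. The P18 Tg/Tg group held 3 samples of the cochlea without the vestibular labyrinth from homozygous mice aged 18 days. The P18 WT group held 3 samples of the same tissue and age from mice without the transgene. The P5 Tg/Tg group held 5 samples of the microdissected organ of Corti from homozygous mice aged 5 days, and the P5 WT group held 5 such samples from mice without it. All groups share the FVB/NCrl background, and all Tg/Tg mice belong to 1 of the transgenic lines, 1MDW. Age and tissue therefore change together between P18 and P5. The sample names call the arrays of a group biological replicates, and whether an array holds 1 animal or a pool is not stated, so the p-values rest on the scatter among the arrays of a group, part of which may be technical. At P18 the mean of *Kdm5d*, *Uty* and *Eif2s3y*, genes of the Y chromosome, lay at 7.65 to 7.66 in Tg/Tg and 7.22 to 7.34 in WT, whereas at P5 it was above 6 on 1 of 5 Tg/Tg arrays and on 4 of 5 WT arrays and near 4 on the others. The level of these genes thus largely went with genotype at P5, so that sex and genotype are not cleanly apart in the P5 differences.

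Notch signalling passes between touching cells. A ligand of the Jagged or Delta family on one cell binds a Notch receptor on its neighbour, an ADAM protease and then the gamma-secretase complex cut the receptor, and the freed intracellular part enters the nucleus, where it joins RBPJ and a Mastermind protein and switches on genes such as the Hes and Hey repressors. In the cochlea the pathway is best known for keeping the cells around a young hair cell from becoming hair cells themselves, and for the earlier marking of the prosensory region by JAG1.

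The 3 miRNAs that the transgene expresses are normally found in hair cells, and the study asked of *Notch1*, *Jag1* and *Hes1*, in reporter assays that are not analysed here, whether they are targets. The mature sequences follow with the seed, bases 2 to 8, in capitals, since the seed is the stretch with which a miRNA pairs to its targets. They are RefSeq sequences on build GRCm38.p6, all on the minus strand, at chr6:30165962-30165986, chr6:30169506-30169528 and chr6:30169711-30169732 in the order given.
miR-182-5p: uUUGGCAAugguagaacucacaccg
miR-96-5p: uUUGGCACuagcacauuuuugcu
miR-183-5p: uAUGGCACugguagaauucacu
All 3 seeds differ, so that each miRNA forms a seed group of its own. Those of miR-182-5p and miR-96-5p part only at their last base, and those of miR-96-5p and miR-183-5p only at their first. The *Mir182* probeset, which reads the precursor and the transgene, lay at 7.95 to 7.98 on the P18 Tg/Tg arrays and 3.83 to 3.92 on the P18 WT arrays, and at 7.77 to 8.64 on the P5 Tg/Tg arrays and 4.25 to 5.46 on the P5 WT arrays. The groups named Tg/Tg and WT were thus apart at both ages.

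No Notch pathway gene passed the test for genotype at either age. At P18, 0 of the 34 had an adjusted p under 0.05 in limma, against 0.443% of all probesets, and 2 had an unadjusted p under 0.05. At P5 the count was also 0 of 34, against 0.610% of all probesets, with 3 at an unadjusted p under 0.05. At that unadjusted level 8.77% of all probesets passed at P18 and 16.4% at P5. In bulk tissue, fewer cells of a type and less RNA per cell cannot be told apart in any of these values. The difference between the genotype effects, P18 minus P5, was called for 0 of 34, against 0.596% of all probesets, and 2 members had an unadjusted p under 0.05, which is 5.88% of them against 14.3% of all probesets.

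The sizes that these arrays leave room for are small for most of the genes. At P18 the 95% confidence interval of the Tg/Tg minus WT difference lay within 1.5-fold in both directions for 32 of the 34 genes, the exceptions being *Jag1* and *Dtx1*, against 77.2% of all probesets. At P5 it did so for 33 of the 34, all but *Jag1*, against 83.1% of all probesets. No member's interval reached 2-fold at either age. These intervals use 1 estimate of the spread per gene from all 16 arrays, and the P5 arrays were the more variable. With each age fitted alone, the interval lay within 1.5-fold for 34 of 34 genes at P18 and for 33 of 34 at P5. The plot of genotype differences shows the point estimates on both sides of 0, with 21 of 34 below it at P18 (median −0.05) and 24 of 34 at P5 (median −0.07), where 55.4% of all probesets at P18 and 53.3% at P5 were below 0.

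**Figure D1:**
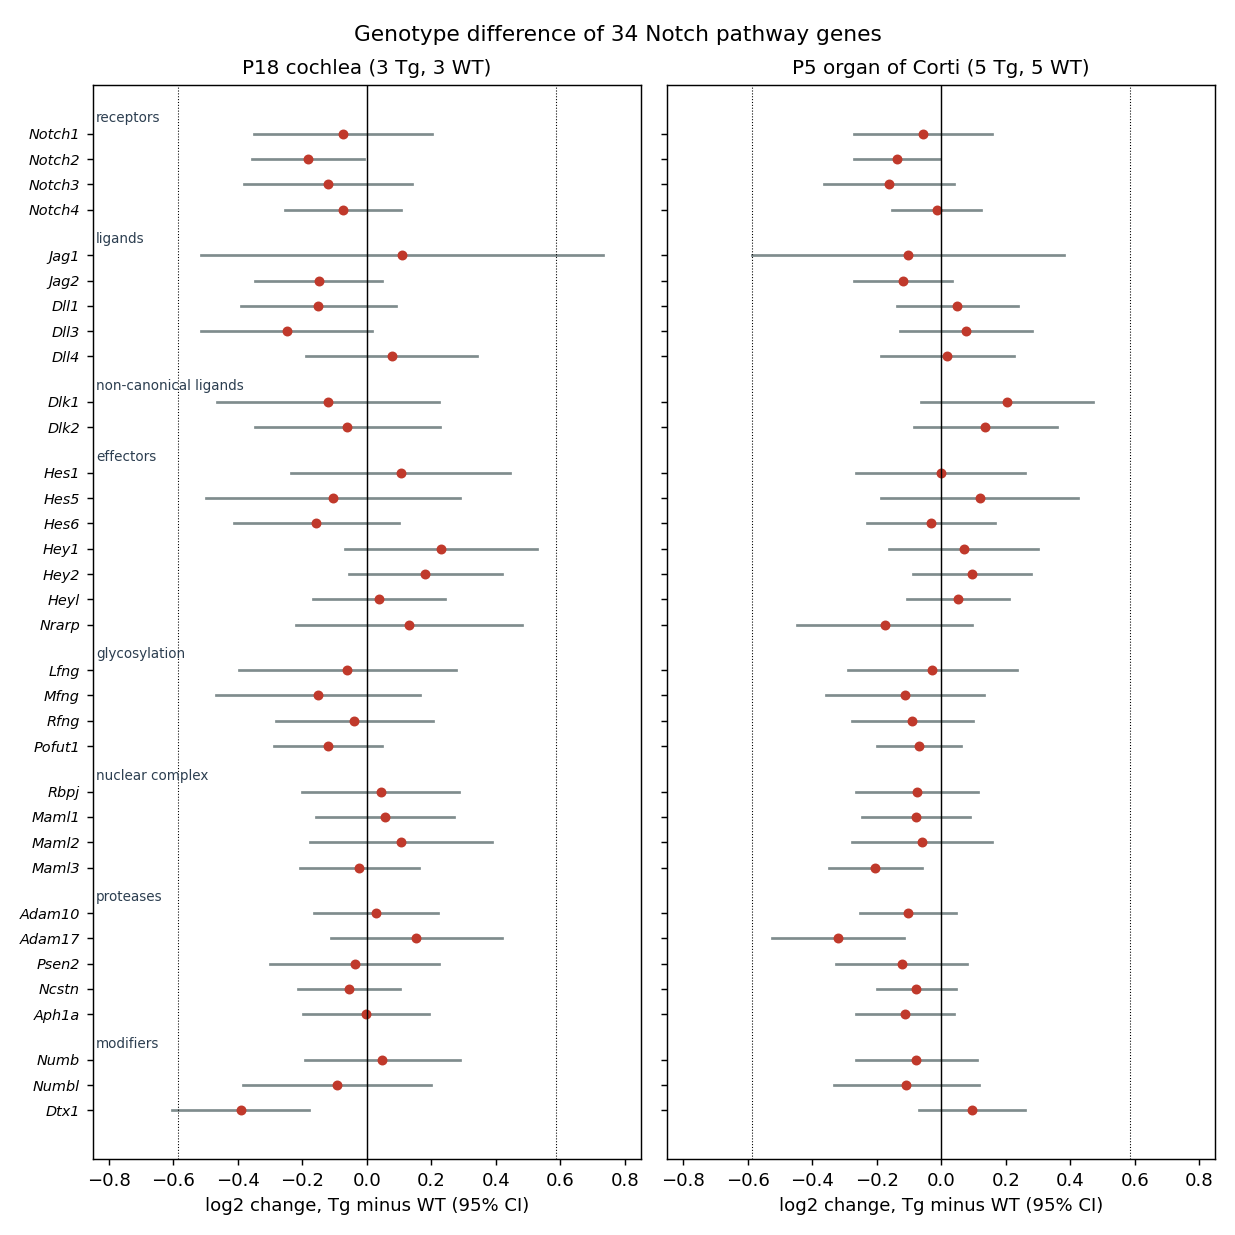
Log2 change, Tg/Tg minus WT, of the 34 Notch pathway genes at P18 (left, 3 against 3 arrays) and P5 (right, 5 against 5 arrays), with bars for the 95% confidence interval, dotted lines at 1.5-fold and genes ordered by role. Only the bars of *Jag1* and *Dtx1* at P18 and of *Jag1* at P5 cross a dotted line.

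*Notch1* encodes the receptor best known in the embryonic organ of Corti. Its log2 signal was 9.40, 9.49 and 9.56 on the P18 Tg/Tg arrays, against 9.54, 9.59 and 9.53 on the P18 WT arrays. At P5 it was 10.35, 10.46, 10.79, 10.63 and 10.43 in Tg/Tg, against 10.27, 10.55, 10.56, 10.76 and 10.78 in WT. The genotypes overlapped at both ages, and the difference was −0.07 at P18 (95% interval −0.35 to 0.20, adjusted p = 0.946) and −0.06 at P5 (−0.27 to 0.16, adjusted p = 0.797).

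*Jag1* encodes the ligand that marks the prosensory region and later the supporting cells. It had 7.92, 7.95 and 7.98 on the P18 Tg/Tg arrays, against 7.84, 7.89 and 7.79 on the P18 WT arrays. On the P5 arrays it had 9.64, 9.61, 10.76, 10.58 and 10.38 in Tg/Tg, against 9.64, 10.07, 10.52, 10.61 and 10.64 in WT. The P18 groups did not overlap, with Tg/Tg above WT, and the P5 groups overlapped from end to end. The fitted difference was 0.11 at P18 (95% interval −0.52 to 0.73, adjusted p = 0.973) and −0.10 at P5 (−0.59 to 0.38, adjusted p = 0.840), and both intervals cross 1.5-fold. The spread behind the P18 interval comes mostly from the P5 arrays, since the SD of *Jag1* was 0.03 in P18 Tg/Tg and 0.05 in P18 WT, against 0.53 in P5 Tg/Tg and 0.43 in P5 WT. With the P18 arrays fitted alone the interval was −0.02 to 0.24 (adjusted p = 0.317).

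*Hes1*, a repressor switched on by the freed receptor, had 7.46, 7.67 and 7.52 on the P18 Tg/Tg arrays, against 7.47, 7.44 and 7.43 on the P18 WT arrays. At P5 it had 7.06, 7.12, 7.82, 7.43 and 7.55 in Tg/Tg, against 7.26, 7.24, 7.41, 7.45 and 7.61 in WT. The 2 groups of each age overlapped. The difference was 0.10 at P18 (95% interval −0.23 to 0.44, adjusted p = 0.935) and −0.00 at P5 (−0.26 to 0.26, adjusted p = 0.996).

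The 3 genes with the smallest adjusted p at P18 were *Dtx1*, *Notch2* and *Dll3*, none of which passed. *Dtx1* encodes Deltex, a ubiquitin ligase that binds the intracellular part of Notch. Its signal was 6.92, 7.01 and 7.0 on the P18 Tg/Tg arrays, against 7.51, 7.29 and 7.29 on the P18 WT arrays, while at P5 it was 7.51, 7.33, 7.5, 7.47 and 7.51 in Tg/Tg, against 7.36, 7.17, 7.28, 7.49 and 7.53 in WT. The P18 groups stood apart and the P5 groups overlapped. The difference was −0.39 at P18 (SE 0.10, adjusted p = 0.139), 0.10 at P5 (SE 0.08, adjusted p = 0.535) and −0.49 between the ages (SE 0.13, adjusted p = 0.109). With array weights in limma, *Dtx1* was called lower at P18 (−0.36, adjusted p = 0.00624), while over all alternatives its adjusted p there ran between 0.00624 and 0.524. *Notch2*, a second receptor, differed by −0.18 at P18 (SE 0.08, adjusted p = 0.537), and *Dll3*, a Delta family protein that does not activate Notch on neighbouring cells, by −0.25 (SE 0.12, adjusted p = 0.605). *Dll3* had the dimmest group mean of the members, 4.82 in P18 Tg/Tg, and the lower quartiles of all probesets on the 16 arrays ran between 4.54 and 5.05.

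At P5 the 3 genes with the smallest adjusted p were *Adam17*, *Maml3* and again *Notch2*, and none passed. *Adam17* encodes a membrane protease that sheds many surface proteins and can cut Notch. Its P5 signal was 9.77, 9.77, 9.63, 9.41 and 9.68 in Tg/Tg, against 9.97, 10.32, 9.86, 9.76 and 9.94 in WT, and at P18 it was 9.44, 9.51 and 9.45 in Tg/Tg, against 9.31, 9.33 and 9.30 in WT. Thus the lowest P5 WT array lay just inside the Tg/Tg range, and the P18 groups did not overlap in the opposite direction. The difference was 0.15 at P18 (SE 0.12, adjusted p = 0.828), −0.32 at P5 (SE 0.10, adjusted p = 0.167) and 0.47 between the ages (SE 0.16, adjusted p = 0.210). The last value was called with array weights (0.40, adjusted p = 0.0468) and under no other alternative. *Maml3*, a Mastermind coactivator, differed by −0.20 at P5 (SE 0.07, adjusted p = 0.200), and *Notch2* by −0.14 (SE 0.06, adjusted p = 0.299).

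By role, all 4 receptors had point estimates below 0 at both ages, between −0.18 and −0.07 at P18 and between −0.16 and −0.01 at P5. The 4 genes that glycosylate the receptors, the Fringe enzymes *Lfng*, *Mfng* and *Rfng* and the fucosyltransferase *Pofut1*, lay between −0.15 and −0.04 at P18 and between −0.11 and −0.03 at P5. The 7 effectors lay between −0.16 and 0.23 at P18 and between −0.17 and 0.12 at P5. None of these genes had an adjusted p under 0.05. The nuclear partners *Rbpj* and *Maml1* to *Maml3* were between −0.02 and 0.11 at P18 and between −0.20 and −0.06 at P5, and the 5 proteases and gamma-secretase subunits between −0.06 and 0.15 at P18 and between −0.32 and −0.08 at P5. The 5 Jagged and Delta ligands ran from −0.25 to 0.11 at P18 and from −0.12 to 0.08 at P5. *Dlk1* and *Dlk2* were both below 0 at P18, at −0.12 and −0.06, and both above it at P5, at 0.20 and 0.14. The modifiers *Numb*, *Numbl* and *Dtx1* ran from −0.39 to 0.05 at P18 and from −0.11 to 0.10 at P5.

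With 3 arrays a group, values without overlap are common. At P18 the Tg/Tg arrays all lay above the WT arrays for 5 of the 34 genes, *Jag1*, *Dll4*, *Hey1*, *Hey2* and *Adam17*, which is 14.7% of them against 14.0% of all probesets. They all lay below the WT arrays for 10, *Notch2*, *Notch3*, *Notch4*, *Jag2*, *Dll3*, *Dlk1*, *Hes6*, *Pofut1*, *Numbl* and *Dtx1*, which is 29.4% against 13.6%. At P5, with 5 arrays a group, 0 of the 34 were without overlap in either direction, against 0.383% of all probesets higher and 1.29% lower.

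Markers of other cells moved with genotype beside these values. At P5, 8 of 9 measured Schwann cell markers were called lower in Tg/Tg, against 0.549% of all probesets. The mean over that list was 8.08 to 8.49 in Tg/Tg and 9.56 to 9.66 in WT. At P18, 10 of 10 skeletal muscle markers were called higher in Tg/Tg, against 0.383% of all probesets. Their list mean was 8.31 to 8.42 in Tg/Tg and 5.97 to 6.0 in WT. Of 8 cerebellar granule neuron markers 5 were called lower, against 0.0604% of all probesets. Their list mean was 7.27 to 7.30 in Tg/Tg and 7.97 to 8.02 in WT. The study had reported most of these Schwann cell, all of these muscle and several of these granule neuron genes as changed on these arrays. These counts are thus a description and no separate test. *Fabp7*, a fatty acid binding protein used as a supporting cell marker, was the only one of 14 supporting cell markers called at P18 (0.94, adjusted p = 1.33e-05). None of 14 hair cell markers or 10 endothelial markers was called at either age. The endothelial list, which bears on the vascular genes *Notch4* and *Dll4*, had a mean of 8.71 to 8.78 in Tg/Tg and 8.77 to 8.82 in WT at P18, and of 8.32 to 8.65 in Tg/Tg and 8.57 to 8.68 in WT at P5. The part of these cells in the genotype values was not tested.

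Between P5 and P18 the same genes changed in large number. In Tg/Tg, 15 of the 34 were lower in P18 cochlea than in P5 organ of Corti, against 33.0% of all probesets called lower, and 2 were higher, against 21.1%. In WT, 15 were lower, against 30.2% of all probesets, and 3 were higher, against 19.8%. The members' shares in Tg/Tg were 44.1% lower and 5.88% higher, and in WT 44.1% lower and 8.82% higher. The median change was −0.23 in Tg/Tg, where that of all probesets was −0.11, and −0.18 in WT, where it was −0.06. Age cannot be told apart from tissue in these changes.

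The medians of the arrays differed between the ages. When every array was shifted to a common median, all changes between the ages moved up by 0.22 in Tg/Tg and by 0.20 in WT. The calls in Tg/Tg were then 11 lower and 5 higher, against 19.7% and 34.3% of all probesets, and in WT they were again 11 lower and 5 higher, against 21.3% and 34.3%. The 4 genes no longer called lower in Tg/Tg were *Notch2*, *Dll3*, *Pofut1* and *Rbpj*, so their falls there depend on the scaling, and in WT the same held for *Notch2*, *Rfng*, *Pofut1* and *Rbpj*.

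**Figure D2:**
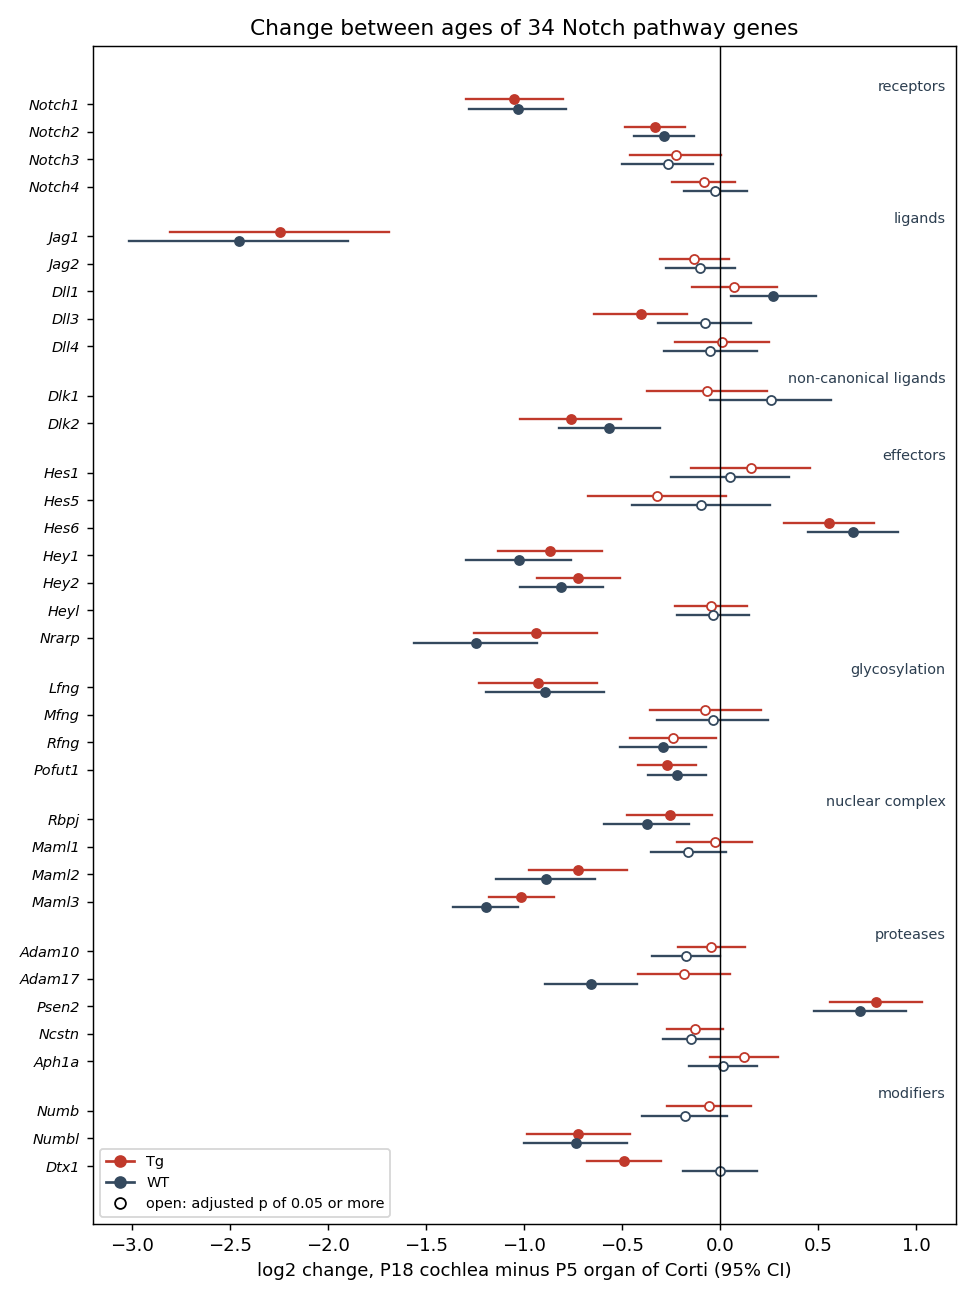
Log2 change, P18 cochlea minus P5 organ of Corti, of the 34 genes in Tg/Tg (upper marker of each pair) and WT (lower marker), with bars for the 95% confidence interval and filled markers for an adjusted p under 0.05. *Jag1* has the longest distance from 0 in both genotypes, and only *Hes6*, *Psen2* and, in WT, *Dll1* have filled markers to the right of it.

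Among the receptors, *Notch1* fell by 1.03 on the log2 scale in WT (95% interval −1.28 to −0.78, adjusted p = 1.92e-06) and *Notch2* by 0.29 (−0.44 to −0.13, adjusted p = 0.00378). The P18 WT values of *Notch1* given above, 9.53 to 9.59, lay below all its P5 WT values, 10.27 to 10.78. The change of *Notch3*, a receptor of vascular mural cells, was −0.27 (adjusted p = 0.0532, and called in 8 of 27 alternatives) and that of *Notch4*, a receptor of endothelium, −0.02 (adjusted p = 0.818).

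The ligands were unequal. *Jag1* fell by 2.24 in Tg/Tg (adjusted p = 2.96e-06), a 4.74-fold lower signal. In WT it fell by 2.46 (95% interval −3.01 to −1.90, adjusted p = 1.05e-06), 5.48-fold lower. All 6 P18 arrays, at 7.79 to 7.98, were below the lowest P5 array, at 9.61. *Dll1*, a Delta ligand made by young hair cells, had 6.39, 6.31 and 6.08 on the P18 WT arrays, against 6.15, 6.14, 5.89, 5.97 and 5.79 on the P5 WT arrays, and was 0.27 higher (SE 0.10, adjusted p = 0.036). These groups overlap, and the call was lost when any of 5 WT arrays was left out, namely P18 replicate 1 (0.21, adjusted p = 0.17) or 2 (0.25, adjusted p = 0.113) or P5 replicate 3 (0.25, adjusted p = 0.0699), 4 (0.27, adjusted p = 0.059) or 5 (0.22, adjusted p = 0.0828). *Jag2*, *Dll3* and *Dll4* had changes of −0.10 to −0.05 in WT, none called. Of the 2 non-canonical ligands, which lack the receptor-activating domain, *Dlk2* fell by 0.57 in WT (adjusted p = 0.000949) and *Dlk1* differed by 0.26 (adjusted p = 0.158).

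The effectors did not move as a block. *Nrarp*, a feedback inhibitor that is switched on by Notch and promotes loss of its intracellular part, had 5.82, 6.03 and 5.99 on the P18 WT arrays, against 6.94, 7.18, 7.30, 7.13 and 7.41 on the P5 WT arrays, a fall by 1.25 (SE 0.15, adjusted p = 3.17e-06). *Hey1*, a repressor related to the Hes genes, had 8.87, 8.94 and 8.91 on the P18 WT arrays, against 9.77, 9.63, 10.02, 10.12 and 10.13 on the P5 WT arrays, a fall by 1.03 (SE 0.125, adjusted p = 4.36e-06). *Hey2* fell by 0.81 in WT (adjusted p = 4.88e-06). In *Nrarp* and *Hey1* every P18 array lay below every P5 array of WT. *Hes6*, which in other neural tissue is known to oppose HES1, went the other way, with 8.18, 8.18 and 8.22 on the P18 WT arrays, against 7.75, 7.22, 7.49, 7.64 and 7.49 on the P5 WT arrays, 0.68 higher (SE 0.11, adjusted p = 6.89e-05). The changes in WT of *Hes1* (0.05, 95% interval −0.25 to 0.35, adjusted p = 0.803), *Hes5* (−0.10, −0.45 to 0.25, adjusted p = 0.656) and *Heyl* (−0.03, −0.22 to 0.15, adjusted p = 0.776) were not called.

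**Figure D3:**
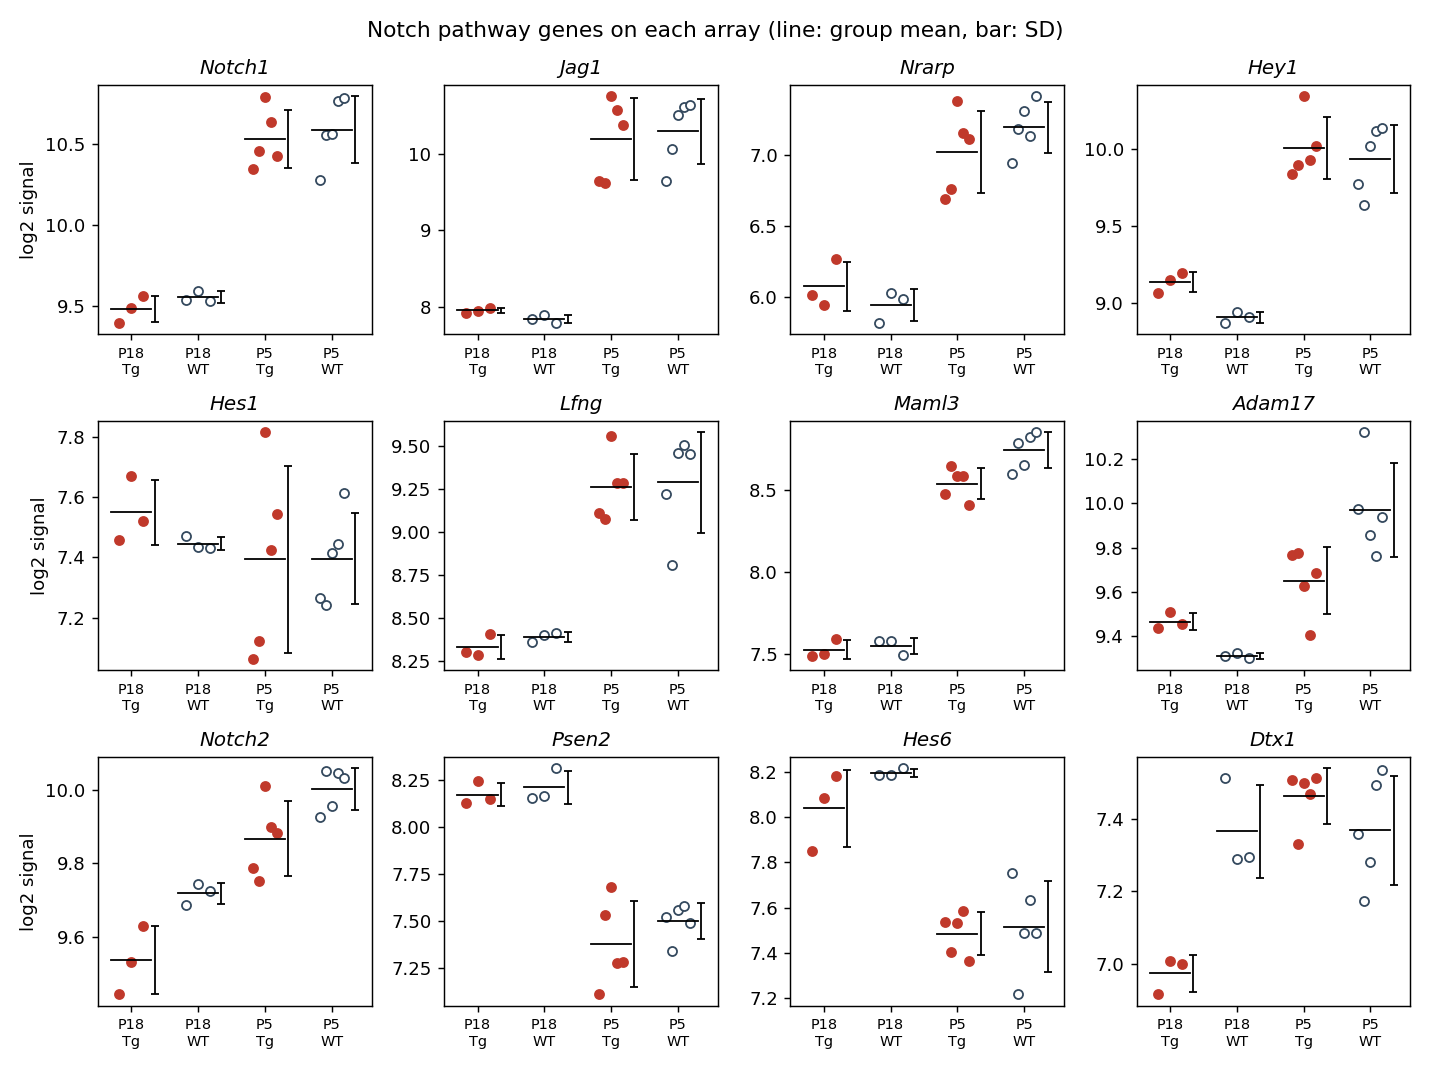
Log2 signal of 12 Notch pathway genes on each array (points), with the group mean (line) and SD (bar), for P18 Tg/Tg, P18 WT (3 arrays each), P5 Tg/Tg and P5 WT (5 arrays each). *Jag1*, *Nrarp*, *Hey1* and *Maml3* are low at P18 in both genotypes, *Psen2* and *Hes6* are high there, and *Dtx1* is low only in P18 Tg/Tg.

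Because RBPJ binds a short sequence whose core reads GTGGGAA, the windows from 250 bases before to 50 after the annotated starts were searched for those letters on both strands, with no other motif. RefSeq windows on GRCm38.p6 were matched by symbol for 30 of the 34 genes, the others being *Hes1*, *Hey1*, *Heyl* and *Mfng*. At least 1 match was found for 5 of the 30 genes, *Hes5*, *Hey2*, *Lfng*, *Aph1a* and *Psen2*, or 16.7%, where 7.25% of 27025 genes with a window have one. *Hes5* and *Hey2* had 2 matches, as have 0.296% of all genes. Stretches around the matches of the effectors and of *Lfng* are printed, with the matches in capitals (TTCCCAC is the same motif on the other strand). Of the genes with a match that are not printed, *Psen2* was 0.71 higher at P18 in WT, and *Aph1a* had a change of 0.01, not called. The *Hes5* stretch is chr4:154960682-154960861 on the plus strand, that of *Hey2* chr10:30842774-30843005 on the minus strand, and that of *Lfng* chr5:140607217-140607253 on the plus strand.
Hes5: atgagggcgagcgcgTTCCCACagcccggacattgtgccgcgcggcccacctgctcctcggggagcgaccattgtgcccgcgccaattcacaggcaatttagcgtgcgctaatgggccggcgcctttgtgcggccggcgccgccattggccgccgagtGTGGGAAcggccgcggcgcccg
Hey2: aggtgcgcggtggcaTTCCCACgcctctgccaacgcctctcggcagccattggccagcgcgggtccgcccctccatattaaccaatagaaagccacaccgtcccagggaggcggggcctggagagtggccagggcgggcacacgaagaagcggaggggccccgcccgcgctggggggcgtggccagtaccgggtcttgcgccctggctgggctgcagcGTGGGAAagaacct
Lfng: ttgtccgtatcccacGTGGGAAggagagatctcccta
*Hes5* and *Hey2* thus carry the same pair of matches, 1 on each strand, with different values between the ages. Counted from the annotated start, the matches begin at −226 and −83 in *Hes5*, at −207 and −4 in *Hey2*, and at −109 in *Lfng*. A match of letters is a description of the window, and binding was not measured.

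*Lfng*, the Fringe enzyme of the supporting cell side of the young organ of Corti, fell by 0.93 in Tg/Tg (adjusted p = 4.71e-05). In WT it had 8.36, 8.40 and 8.42 on the P18 WT arrays, against 9.22, 8.81, 9.46, 9.5 and 9.45 on the P5 WT arrays, a fall by 0.89 (SE 0.14, adjusted p = 6.62e-05). *Rfng* fell in WT by 0.29 (adjusted p = 0.0268), a call kept in 18 of 27 alternatives. It was lost without P18 WT replicate 1 (−0.23, adjusted p = 0.136) or 2 (−0.31, adjusted p = 0.0508) and without P5 WT replicate 4 (−0.27, adjusted p = 0.0562) or 5 (−0.25, adjusted p = 0.062). *Pofut1* fell in WT by 0.22 (adjusted p = 0.0164), which was lost without P18 WT replicate 1 (−0.20, adjusted p = 0.069). *Mfng* had a change of −0.04 (adjusted p = 0.840).

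Of the nuclear complex, *Maml3* had 7.58, 7.58 and 7.49 on the P18 WT arrays, against 8.60, 8.79, 8.66, 8.83 and 8.85 on the P5 WT arrays, a fall by 1.2 (SE 0.08, adjusted p = 3.83e-09), the smallest p among the members. *Maml2* fell by 0.89 (adjusted p = 1.09e-05) and its second probeset by 0.76 (adjusted p = 1.73e-05), and *Rbpj* by 0.37 (adjusted p = 0.00609). The second probeset of *Rbpj*, with a mean of 4.63 over all arrays, lay within the range of their lower quartiles, and had −0.33 in Tg/Tg (adjusted p = 0.0682) and −0.39 in WT (adjusted p = 0.0366). *Maml1*, of the same family, had a change of −0.16 (adjusted p = 0.152). The changes of *Maml1* and *Maml3* in WT were thus unequal, as their intervals (−0.35 to 0.03 and −1.36 to −1.03) do not meet. That of *Maml2* (−1.14 to −0.64) lay below the interval of *Maml1* and overlapped that of *Maml3*.

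Of the proteases and gamma-secretase subunits, *Psen2*, a catalytic subunit, was the gene with the largest rise. It was 0.80 higher in Tg/Tg (adjusted p = 1.75e-05). In WT it had 8.15, 8.16 and 8.31 on the P18 WT arrays, against 7.52, 7.34, 7.56, 7.58 and 7.49 on the P5 WT arrays, 0.71 higher (SE 0.11, adjusted p = 5.25e-05). The change of *Adam17* in Tg/Tg, −0.19, was not called (adjusted p = 0.173). In WT it fell by 0.66 (adjusted p = 0.000121), and the difference between these changes is the value of 0.47 given above, which was not called either. *Adam10*, the main protease of ligand-activated receptors, the subunit *Ncstn* and the subunit *Aph1a* had changes of −0.17, −0.15 and 0.01 in WT (adjusted p = 0.0851, 0.0743 and 0.905). Among the modifiers, *Numbl* fell by 0.74 (adjusted p = 0.000104), while *Numb*, the related endocytic inhibitor of Notch, had a change of −0.18 (adjusted p = 0.154).

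The genotypes shared most of this course. Of the 34 genes, 13 were called lower in both and 2 higher in both, *Psen2* and *Hes6*, and no gene was called in opposite directions. The share of all probesets called alike in both genotypes was not counted. This agreement is therefore not shown to be particular to the Notch pathway genes. The fall of *Rbpj* in Tg/Tg (−0.26, adjusted p = 0.0445) is among the 13 but was called in 11 of 27 alternatives. It was lost when any P18 array, P5 Tg/Tg replicate 1, 4 or 5 or P5 WT replicate 3 or 5 was left out, with values of −0.27 to −0.20 and adjusted p of 0.0508 to 0.134. Called in Tg/Tg alone were *Dll3* (−0.41, adjusted p = 0.00598) and *Dtx1* (−0.49, adjusted p = 0.000247), against −0.08 and −0.00 in WT. The fall of *Dll3* depended on the scaling. It was −0.003 in Tg/Tg with quantile normalization repeated (adjusted p = 0.981) and −0.18 with arrays shifted to a common median (adjusted p = 0.147). Called in WT alone were *Dll1*, *Rfng* and *Adam17*, although alternatives also called them in Tg/Tg, 2 of 26 for *Dll1*, 5 of 27 for *Rfng* and 2 of 27 for *Adam17*. Since the difference itself was called for none of them, these genes are not shown to differ between the genotypes. Across the 34 genes the changes in Tg/Tg and WT had a Pearson correlation of 0.952, a description over genes that share the arrays, not over replicates.

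Markers of cell types moved with age and tissue as well. Of 14 hair cell markers 12 were lower and 1 higher in P18 WT cochlea, against 30.2% of all probesets lower and 19.8% higher. Their mean over the list was 6.87 to 6.88 at P18 WT and 7.48 to 7.81 at P5 WT. Of 14 supporting cell markers 10 were lower and 3 higher, with a list mean of 9.09 to 9.14 at P18 WT and 9.80 to 10.002 at P5 WT. The changes of these 14 markers in WT ran from −4.82 to 3.06, with a median of −0.83. Among them *Sox2*, a transcription factor of supporting cells, fell by 2.21 (adjusted p = 1.88e-10). All 7 markers of blood and marrow were higher, with a list mean of 10.63 to 10.66 at P18 WT and 5.35 to 5.68 at P5 WT, and 6 of 9 mural cell markers were higher, with 8.80 to 8.83 at P18 WT and 7.72 to 7.95 at P5 WT. The other lists moved in WT too, with 7 of 8 granule neuron and 7 of 10 skeletal muscle markers higher. Of 9 cartilage and bone markers 6 were higher and 3 lower. Of 10 endothelial markers 5 were higher and 2 lower, and of 9 Schwann cell markers 2 were higher and 4 lower. The part of all these cells in the changes of the Notch genes was not tested.

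The P5 arrays varied more than the P18 arrays. The median SD of the 34 genes was 0.06 in P18 Tg/Tg, 0.05 in P18 WT, 0.16 in P5 Tg/Tg and 0.16 in P5 WT. *Jag1* had the largest SD of the members in both P5 groups, 0.53 in Tg/Tg and 0.43 in WT, and 3.2% and 8.39% of all probesets had a larger one there. Its lowest P5 values, given above, were on replicates 1 and 2 in both genotypes. The same held for *Jag2*, *Hes1*, *Hes5*, *Hey1*, *Hey2* and *Lfng*, so that for 7 of the 34 genes, or 20.6%, replicates 1 and 2 were both the lowest in both genotypes, against 4.77% of all probesets. *Adam17* alone of the 34 genes had both replicates highest in both genotypes, and the share of all probesets in this direction was not counted.

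**Figure D4:**
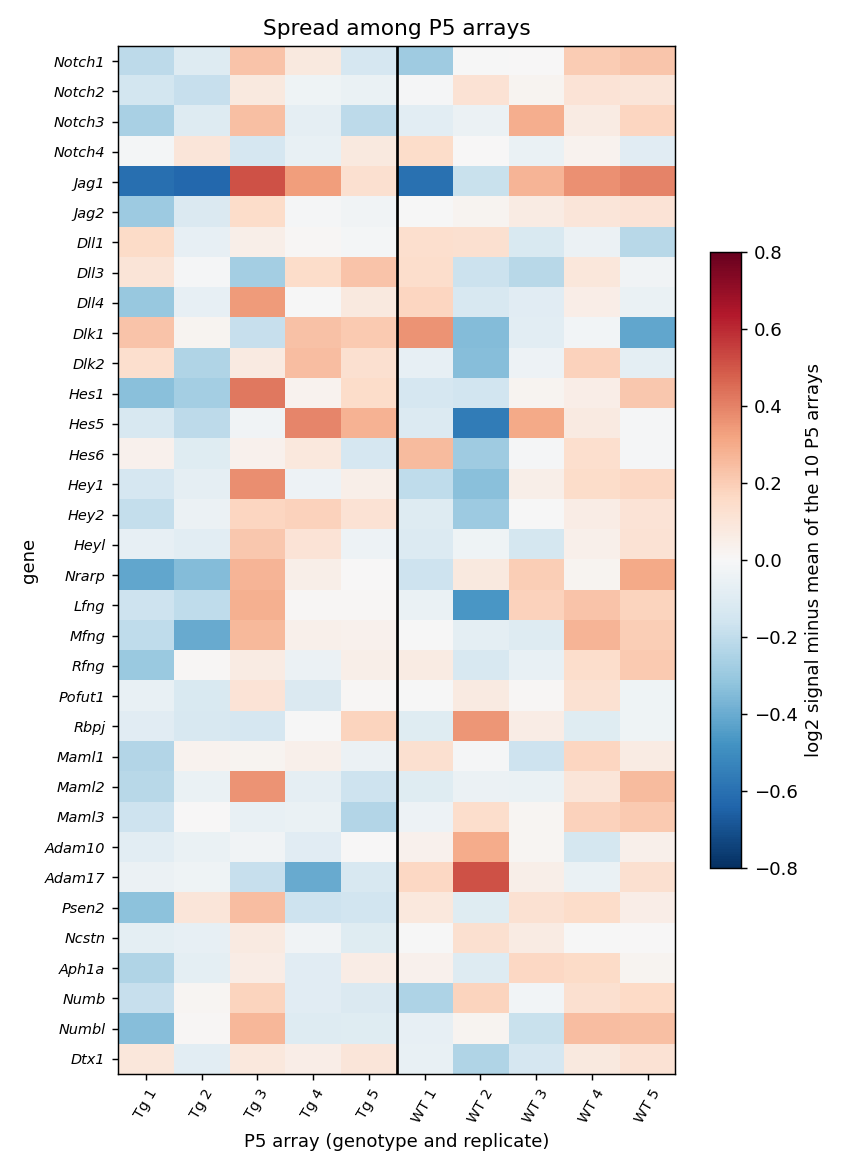
Log2 signal of the 34 genes on each P5 array minus the mean of the 10 P5 arrays (colour), with the 5 Tg/Tg arrays left of the 5 WT arrays. *Jag1* ranges most, with blue cells on replicates 1 and 2 and red cells on replicates 3 to 5 of both genotypes.

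Marker lists moved with the same arrays. The mean of the cartilage and bone list was 9.68 and 9.83 on P5 Tg/Tg replicates 1 and 2 and 9.39, 9.21 and 9.11 on replicates 3 to 5, and in P5 WT it was 9.82 and 9.74 on replicates 1 and 2 and 9.27, 9.30 and 9.28 on the others. The supporting cell list ran the other way, at 9.74 and 9.76 on Tg/Tg replicates 1 and 2 and 10.01, 9.86 and 9.91 on replicates 3 to 5, and at 9.80 and 9.82 on WT replicates 1 and 2 and 9.90, 9.96 and 10.002 on the others. The hair cell list was also lower on replicates 1 and 2 than on replicates 3 to 5 in both genotypes. Each genotype thus held arrays of both kinds at P5. The Schwann cell list was higher on replicates 1 and 2 than on replicates 3 to 5 in Tg/Tg but not in WT. The endothelial list was higher on them in WT but not in Tg/Tg. The part of these cells in the spread of the Notch genes was not tested.

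A wider set of pathway genes was counted in the same way. Of 45 measured ones, among them ubiquitin ligases of the ligands, corepressors, coactivators and further glycosyltransferases, none was called in limma for genotype at P18, at P5 or for the difference. At an unadjusted p under 0.05 there were 6 at P18 (13.3%, against 8.77% of all probesets), 7 at P5 (15.6%, against 16.4%) and 7 for the difference (15.6%, against 14.3%). In P18 Tg/Tg 18 of the 45 were lower than at P5 (40.0%, against 33.0% of all probesets) and 13 higher (28.9%, against 21.1%). In P18 WT 16 were lower (35.6%, against 30.2%) and 10 higher (22.2%, against 19.8%). The largest falls in WT were those of *Ccn3*, a secreted matricellular protein (−2.01, adjusted p = 7.03e-10), *Cntn6*, a contactin near the lower quartile of the arrays at P18 (−1.38, adjusted p = 0.000385), and *Eogt*, which adds a sugar to extracellular EGF repeats (−1.14, adjusted p = 2.59e-08). The largest rises were those of *Mfap5*, a microfibril protein (1.71, adjusted p = 2.35e-07), *Dner*, a neuronal membrane protein with EGF repeats (0.74, adjusted p = 0.0174), and *Dtx3l*, a Deltex family ligase (0.74, adjusted p = 2.91e-06).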

How the data were processed

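The members and gene lists were chosen with earlier results of these data known. Total RNA of 16 samples was hybridised to MoGene 1.0 arrays, 1 array per sample. The authors deposited normalized log2 signals of 34760 probesets; the background correction and normalization are not given in the sources used here, and limma is the tool named in the submitters' processing notes. Nothing was normalized again. Samples were grouped by their names, since other label fields give some of them another age, tissue or genotype. Probesets were named from the platform table, updated through gene identifiers, and 21640 had a single gene. A model with 4 group means was fitted to all 16 arrays and all probesets in limma 3.58.1 under R 4.3.3 (lmFit, eBayes, 12 residual and 3.23 prior degrees of freedom). Tests were two-sided, with Benjamini-Hochberg adjustment across every probeset, and a gene was called at an adjusted p under 0.05. No probeset was filtered out. The number of arrays limits the precision. Given in full were *Notch1*, *Jag1* and *Hes1*, members called for genotype (or, where none was, the 3 with the smallest adjusted p at an age), and up to 6 called members with the largest fall and 6 with the largest rise in WT. Other members are given by role, and other pathway genes as counts with the 3 largest called changes in each direction. Alternatives were other normalizations, filters, variance models, weights, thresholds, blocks and covariates, and the omission of single arrays. The fit was tested on simulated data. matplotlib 3.10.9 made the plots.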

Additional observations from a re-analysis of the deposited data

Results flagged for a closer look

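Of 68 sets of 5 arrays, those of the 34 genes in the 2 P5 groups, 1 held an array far from the others by Dixon's criterion, which chance alone meets in about 1 in 20. *Dtx1* was 7.33 on P5 Tg/Tg replicate 2, while the other 4 arrays of the group lay between 7.47 and 7.51. The P18 groups of 3 were not tested in this way, and no genotype effect of a member differed between the ages at an adjusted p under 0.05.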

How the results depend on the processing

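The counts of genes called for genotype were 0 under every alternative except array weights, with which *Dtx1* was called at P18 (a count of 1) and *Dtx1* and *Adam17* for the difference between the ages (a count of 2); the cause was not tested. With arrays shifted to a common median, the genes called higher between P5 and P18 were 5 in both genotypes, where the shift itself adds to every change. A fold limit of 1.5 left 10 genes called lower in both genotypes, 1 higher in Tg/Tg and 2 higher in WT, and one of 2 left 3 called lower and 0 higher in Tg/Tg, and 5 lower and 0 higher in WT. With each array left out in turn, the counts stayed at 0 for genotype and ran from 14 to 16 lower and 2 to 2 higher in Tg/Tg, and from 13 to 17 lower and 2 to 4 higher in WT. A block for the replicate number moved no count of genotype calls from 0 and gave 15 lower and 2 higher in Tg/Tg and 15 lower and 2 higher in WT. In Tg/Tg it ended the call of *Rbpj* and added *Adam17*, and in WT it ended those of *Rfng* and *Dll1* (0.23, adjusted p = 0.111) and added *Notch3*. Nothing in the labels pairs samples by number, and the deviations from the group means on arrays of the same number did not all correlate, with 0.000429 to 0.0686 at P18 and, at P5, 0.293, 0.36 and 0.205 for replicates 1, 2 and 4 but −0.112 and −0.224 for replicates 3 and 5. Replicates 1 and 2 at P5 correlated best with their own number, a hint from the data and not from the labels. The study names WT littermates and a block design in limma, without saying which samples formed a block. Blocks within each age, chosen after seeing the data, also gave 0 for genotype. No called change of a gene given array by array reversed under an alternative. With the mean of *Kdm5d*, *Uty* and *Eif2s3y* as a covariate, genotype calls stayed at 0, those in Tg/Tg were 14 lower, without *Rbpj*, and 2 higher, and those in WT stayed at 15 lower and 3 higher. Precision at P18 is limited by 3 arrays a group, and *Dll3* lies near the lower quartile of the arrays.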
